A study of Mus musculus with 12 samples.

Results

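Expression of 39 genes of the bone morphogenetic protein (BMP) and transforming growth factor beta (TGF-beta) pathways was followed in the cerebral cortex of C57BL/6 mice from mid-gestation to birth. The genes were taken from a list of ligands, receptors, signal transducers, antagonists and targets of these pathways, matched by symbol to the Ensembl identifiers of the files. All 39 were found among 50600 identifiers, and all 39 had enough counts to be tested. The study sampled the cortex at E11, E13 and E17, which are embryonic days, and at P1, postnatal day 1, and was titled as a study of zinc uptake and storage. Each age had libraries A, B and C, and each library was made from the cortex of a single animal, with 3 litters represented at each age. No genotype or treatment differed between the groups, so age is the only labelled factor. RNA with poly(A) tails was sequenced as 75 bp single reads after a strand-specific library preparation.

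BMPs, TGF-betas and activins are secreted dimers that bring type I and type II receptor kinases together at the cell surface. The activated type I receptor phosphorylates receptor-regulated Smad proteins, Smad1, Smad5 and Smad9 for BMPs and Smad2 and Smad3 for TGF-betas and activins, which enter the nucleus with Smad4 and act on target genes such as the Id genes. In the developing forebrain, BMPs are known as signals of the dorsal midline, where the cortical hem and choroid plexus form, and the meninges around the cortex also make them.

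Total counts were 28173745 to 45858712 per library. Levels are given in CPM, counts per 1000000 counts of a library after scaling with TMM factors. Markers of cortex were present in all 12 libraries, with Emx1 at 30.3 to 125 CPM, Tbr1 at 86.7 to 339 CPM and Lhx2 at 167 to 693 CPM. Markers of tissue next to the cortex were present too, and some libraries stood apart in them. The choroid plexus gene Ttr was at 24.2 CPM in E13 C against 322 and 290 CPM in E13 A and B, and markers of interneurons and ventral forebrain summed to 44.7 CPM in E11 C against 8.44 and 4.92 CPM in the other E11 libraries. E17 A had the highest sum of that list at E17, 489 CPM. It lay closer to E17 C, at 458 CPM, than E17 B did, at 398 CPM. Summed choroid plexus and hem markers were highest in E17 B at that age, 55.8 CPM against 37.9 and 38.9 CPM. Summed meningeal markers were highest in P1 A at P1, 188 CPM against 145 and 146 CPM. Counts of changed genes are also given with E17 A, E13 C and E11 C left out. E17 B and P1 A were kept in that run. All comparisons are of whole tissue, in which fewer cells of a type and less RNA per cell cannot be told apart. Summed markers of meninges and of choroid plexus and hem, given below, also differed between the ages. The amount of neighbouring tissue taken along with the cortex therefore cannot be told apart from age.

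Neighbouring ages were compared in 3 steps, with differences taken as later minus earlier, in a model fitted to all 17847 genes with enough counts and p-values adjusted over all of them. A gene is said to have risen or fallen where its adjusted p was under 0.05. Between E11 and E13, 9 of the 39 genes rose and 15 fell, 24 in all, in a comparison where 40.1% of all tested genes changed (22.6% rose and 17.5% fell). Between E13 and E17, 15 rose and 17 fell, 32 in all, against 73.8% of all tested genes (36.8% and 37.0%). Between E17 and P1, 9 rose and 13 fell, 22 in all, against 49.9% (24.0% and 25.9%). From E11 to P1, which shares its libraries with the steps, 13 rose and 22 fell, against 82.3% of all tested genes (40.5% and 41.8%), and across the 4 ages all 39 changed, against 90.2%. With E17 A, E13 C and E11 C left out, the counts in the 3 steps were 18, 28 and 20. The median log2 fold change of the 39 genes was -0.05, -0.31 and -0.07 in the 3 steps, and that of all tested genes 0.0, -0.04 and -0.0.

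The step from E13 to E17 held most of the large changes. The steps differ in length, and this one spans more days than the step from E11 to E13. In it 16 of the 39 genes changed at least 2-fold, against 5 in the step before, where 9.76% of all tested genes did so, and 4 in the step after, where the share was 9.72%. The share of all tested genes that changed at least 2-fold from E13 to E17 was 34.3%. For 24 of the 39 genes this step was the one with the largest change in either direction, as it was for 63.7% of all tested genes. It was the step from E11 to E13 for 8 genes and the step from E17 to P1 for 7.

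**Figure D1:**
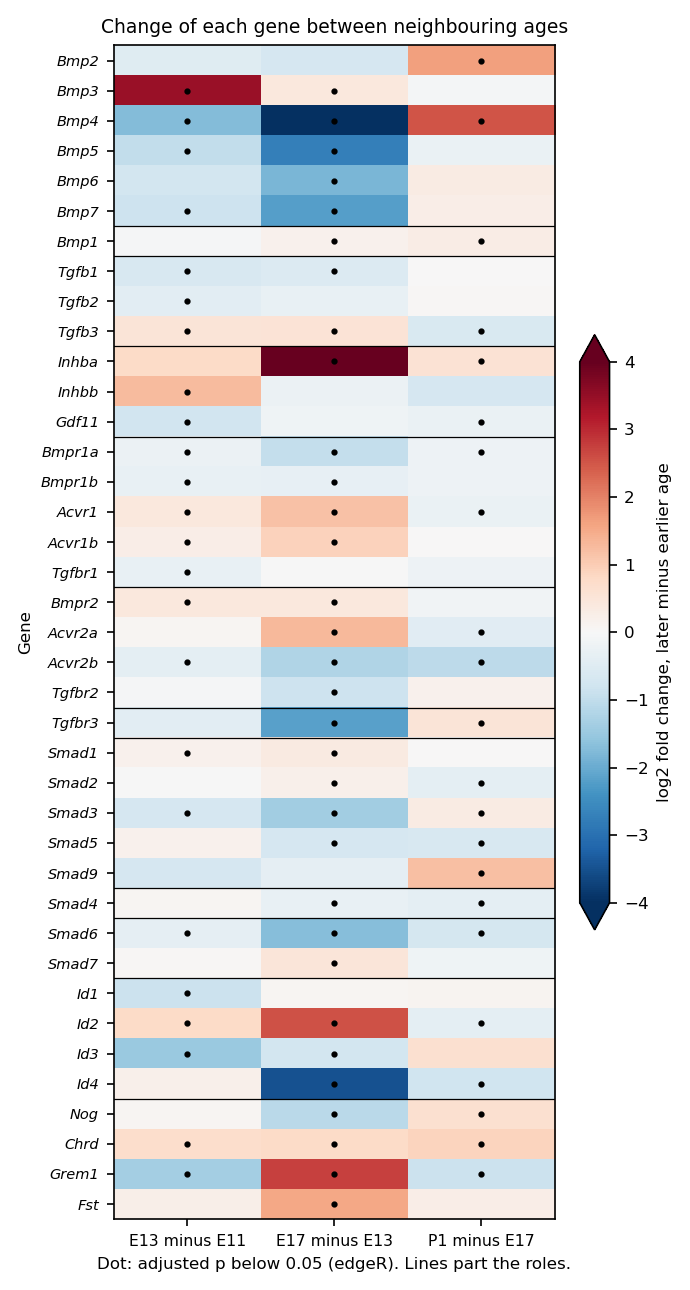
Change of each of the 39 genes between neighbouring ages, in columns from E11 to E13, E13 to E17 and E17 to P1, as the log2 fold change of the later over the earlier age (colour scale from -4 to 4, with arrows for values beyond it). Dots mark an adjusted p under 0.05 in edgeR and lines part the roles. The middle column has the strongest colours, with Bmp4 and Id4 at the blue end and Inhba, Grem1 and Id2 at the red end.

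The bases before the start sites were looked at for the letters that Smad proteins are known to bind. RefSeq windows of the 250 bases before the gene start were found for 27 of the 39 genes, on mouse build GRCm38.p6. The palindrome GTCTAGAC was found for 0 of the 27 genes and in 0.167% of all 32851 windows. Its 4-letter core, GTCT or AGAC, was in 22 of 27 and in 82.9% of all windows, and the GC-rich element GGCGCC was in 9 of 27 (Bmpr1a, Bmpr2, Chrd, Grem1, Id2, Id4, Smad5, Smad9 and Tgfbr1) and in 9.59% of all windows. Both strands were searched, and each palindrome also holds the core. A gene with several windows was counted if any of them matched, so counts of genes can exceed the share of single windows. For the composition below, the window with the lowest coordinate was taken for each gene. The windows of the 27 genes were rich in CG, with a median GC content of 68.8% and a median of 22 CpG dinucleotides, against 52.4% and 6 over all windows. In 21 of the 27 windows the ratio of observed to expected CpG was at least 0.6, which held for 34.0% of all windows. A match of letters is a description and not a binding site.

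Windows are printed for the 2 largest falls and the 2 largest rises from E13 to E17 among the genes with only 1 window, free of annotated exons. Capitals mark the core and the GC-rich element, and each window reads towards the gene. Bmp4 (chr14:46390670-46390919, minus strand) has 1 core match and 11 CpG. Id4 (chr13:48260866-48261115, plus strand) has 1 GC-rich element, no core match and 35 CpG. Grem1 (chr2:113758649-113758898, minus strand) has 4 core matches, 1 GC-rich element and 24 CpG, and Inhba (chr13:16011601-16011850, plus strand) has 1 core match and 3 CpG. The CpG ratio was at least 0.6 in the windows of Id4, which fell, and Grem1, which rose, and below it in those of Bmp4 and Inhba.
Bmp4: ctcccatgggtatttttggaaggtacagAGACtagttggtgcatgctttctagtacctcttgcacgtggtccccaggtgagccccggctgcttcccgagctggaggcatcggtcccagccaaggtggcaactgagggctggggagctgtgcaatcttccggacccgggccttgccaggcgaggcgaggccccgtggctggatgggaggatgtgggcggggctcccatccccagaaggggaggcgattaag
Id4: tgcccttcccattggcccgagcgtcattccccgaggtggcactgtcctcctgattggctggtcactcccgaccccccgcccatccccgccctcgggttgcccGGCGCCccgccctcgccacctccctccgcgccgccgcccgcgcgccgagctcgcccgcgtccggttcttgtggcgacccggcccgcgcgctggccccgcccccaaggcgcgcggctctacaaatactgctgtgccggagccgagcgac
Grem1: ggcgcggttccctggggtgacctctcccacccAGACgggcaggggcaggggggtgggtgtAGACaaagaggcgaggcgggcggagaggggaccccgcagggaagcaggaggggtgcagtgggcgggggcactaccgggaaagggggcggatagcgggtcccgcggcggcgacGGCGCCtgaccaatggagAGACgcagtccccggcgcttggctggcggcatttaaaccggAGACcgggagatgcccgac
Inhba: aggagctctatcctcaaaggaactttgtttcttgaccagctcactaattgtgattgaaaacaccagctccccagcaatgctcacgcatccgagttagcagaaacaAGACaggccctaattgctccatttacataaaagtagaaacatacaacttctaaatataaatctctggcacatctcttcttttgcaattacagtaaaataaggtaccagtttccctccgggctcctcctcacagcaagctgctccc

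Of the 6 BMP ligands, 4 (Bmp4, Bmp5, Bmp6 and Bmp7) fell at least 3-fold between E13 and E17, while Bmp3 rose, mainly between E11 and E13, and Bmp2 rose between E17 and P1. Of all tested genes, 37.0% fell from E13 to E17, and 34.3% changed at least 2-fold in either direction. Bmp7, a BMP made at the dorsal midline and in the meninges, stood at 47.6, 57.6 and 48.7 CPM at E11 (libraries A, B and C in this order, here and for all genes), 34.9, 22.3 and 28.8 CPM at E13, 6.21, 6.87 and 5.53 CPM at E17, and 8.44, 7.73 and 6.3 CPM at P1. The E11, E13 and E17 libraries did not overlap, and those of E17 and P1 did. Bmp7 fell by 0.84 ± 0.15 (SE) on the log2 scale from E11 to E13 (adjusted p = 0.000836) and by 2.21 ± 0.17 from E13 to E17 (adjusted p = 7e-08). Its log2 fold change after E17 was 0.28 ± 0.17 (adjusted p = 0.198).

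Bmp4, a BMP of the roof plate and hem, was at 6.79, 8.9 and 13.7 CPM at E11, 3.2, 2.22 and 3.49 CPM at E13, 0.0379, 0.215 and 0 CPM at E17, and 0.692, 0.129 and 0.477 CPM at P1. Every E11 library was above every E13 library and every E13 library above every E17 library. The level at E17 rests on 7 counts in all, 1, 6 and 0 in A, B and C, against 313 counts at E13. Bmp4 fell by 1.72 ± 0.39 from E11 to E13 (adjusted p = 0.00463) and by 5.28 ± 0.71 from E13 to E17 (adjusted p = 2.61e-05). The size of the second fall depended on single E17 libraries: the log2 fold change was -7.36 without E17 B and -4.49 without E17 C. At P1 Bmp4 had 51 counts, a log2 fold change of 2.51 ± 0.92 over E17 (adjusted p = 0.0394), and leaving out any of E11 B, E13 A, E17 A, E17 C, P1 A or P1 C ended that call (adjusted p from 0.05 to 0.159).

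Bmp5, a close relative of Bmp7, was at 9.8, 12.5 and 11.9 CPM at E11, 6.53, 5.11 and 5.71 CPM at E13, 0.909, 0.644 and 0.984 CPM at E17, and 0.719, 0.721 and 0.692 CPM at P1. Its levels separated E11, E13 and E17 without overlap and stayed under 1 CPM from E17 on. It fell by 0.98 ± 0.14 from E11 to E13 (adjusted p = 0.000137) and by 2.75 ± 0.18 from E13 to E17 (adjusted p = 6.43e-09). In the GENCODE M21 annotation 46.7% of the exon bases of Bmp5 are also in Gm26903, a gene on the opposite strand with 4 counts over the 12 libraries. Bmp6, another member of that subfamily, was at 6.26, 6.86 and 9.68 CPM at E11, 5.39, 4.46 and 3.73 CPM at E13, 1.63, 1.29 and 1.01 CPM at E17, and 2.87, 0.747 and 1.26 CPM at P1. The E13 libraries were all above the E17 libraries, and P1 A stood above P1 B and C. Of its exon bases, 5.74% are also in Txndc5, a gene on the opposite strand with 33767 counts over the 12 libraries against 1545 for Bmp6. Bmp6 fell by 1.82 ± 0.4 from E13 to E17 (adjusted p = 0.00126), while its log2 fold change from E11 to E13 was -0.74 ± 0.34 (adjusted p = 0.109).

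Bmp3, a BMP family member known for opposing other BMPs and activins, moved the other way. It was at 0.591, 1.12 and 1.05 CPM at E11, 8.12, 13 and 9.32 CPM at E13, 12.9, 13.7 and 14.1 CPM at E17, and 13.8, 12.5 and 12.6 CPM at P1. All libraries from E13 on were above 8 CPM, and the E13 and E17 libraries overlapped. Bmp3 rose by 3.46 ± 0.22 from E11 to E13 (adjusted p = 1.69e-07), 11.0-fold, the largest change of the 39 genes in that step. The later rise of 0.42 ± 0.17 (adjusted p = 0.0372) was lost without any of E13 A, E13 C, E17 B or E17 C (adjusted p from 0.0716 to 0.157).

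Bmp2, a ligand close to Bmp4, was low throughout, at 1.42, 1.18 and 2.16 CPM at E11, 1.4, 0.982 and 0.956 CPM at E13, 0.757, 0.429 and 0.891 CPM at E17, and 2.4, 1.73 and 2.48 CPM at P1. All P1 libraries were above all E17 libraries. Bmp2 rose by 1.63 ± 0.3 from E17 to P1 (adjusted p = 0.000553), and its log2 fold changes in the earlier steps were -0.5 ± 0.29 (adjusted p = 0.19) and -0.66 ± 0.32 (adjusted p = 0.0751). Bmp1 is no BMP but a protease that cleaves procollagen and the antagonist chordin. Its mean level was 64.8, 62.9, 70.3 and 85.7 CPM at the 4 ages, and it rose by 0.29 ± 0.06 from E17 to P1 (adjusted p = 0.00108). A rise of 0.16 from E13 to E17 (adjusted p = 0.0224) was lost without E13 C (adjusted p = 0.102) or E17 A (adjusted p = 0.0588), and with libraries scaled by their size alone its log2 fold change was -0.02.

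**Figure D2:**
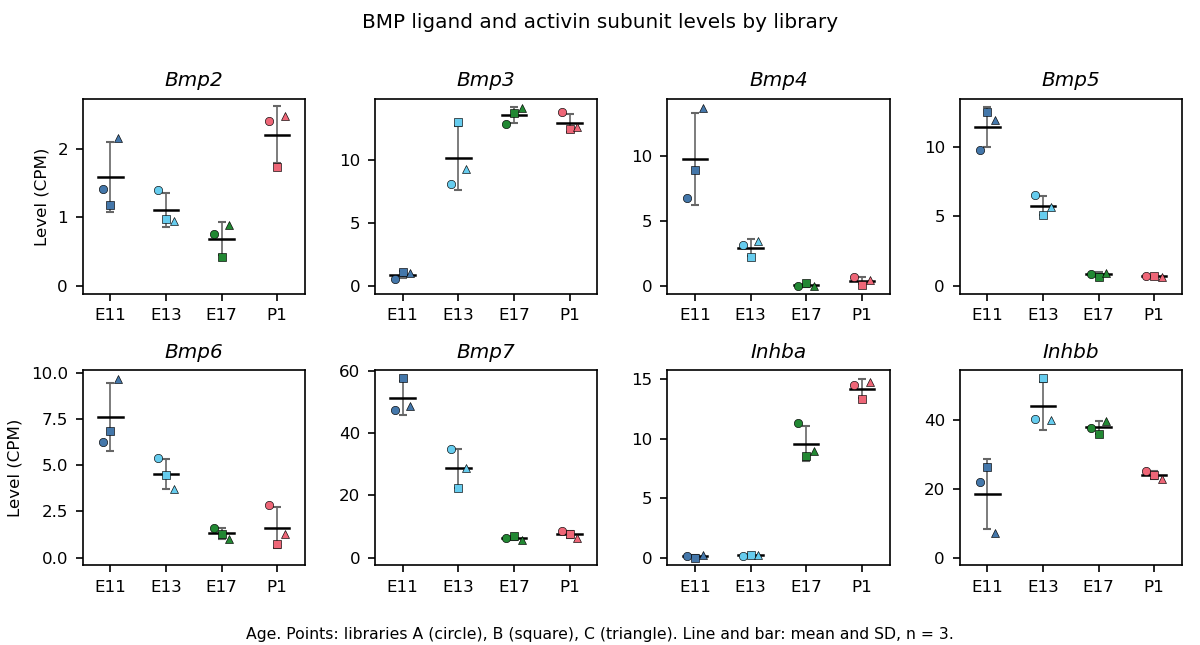
Levels of 6 BMP ligands and both activin beta subunits by age, in CPM on a linear axis. Points are libraries A, B and C, and the line and bar are the mean and SD of the 3 libraries of an age. Bmp4, Bmp5, Bmp6 and Bmp7 drop to low levels at E17, Bmp3 is up from E13, Inhba from E17, and the E11 C library is low for Inhbb (7.1 CPM).

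Most markers of the tissues known to make BMPs fell from E13 to E17, as Bmp4, Bmp5, Bmp6 and Bmp7 did, and so did most markers of several other lists. The summed level of 11 meningeal fibroblast markers was 1390 to 1690 CPM at E11, 913 to 1260 CPM at E13, 87.1 to 96.9 CPM at E17 and 145 to 188 CPM at P1, and 10 of the 11 fell from E13 to E17 (median log2 fold change -5.34). The one that rose, Pdgfra, also marks oligodendrocyte precursors, and the other 10 genes summed to 889 to 1220 CPM at E13, 35.5 to 47.7 CPM at E17 and 24.6 to 65.1 CPM at P1. The sum of 12 markers of choroid plexus and hem was 534 to 657 CPM at E11, 187 to 575 CPM at E13, 37.9 to 55.8 CPM at E17 and 30.0 to 34.7 CPM at P1, and 10 of the 12 fell in the same step (median -4.98). Ttr made up much of the difference between the E13 libraries, and the other 11 genes summed to 253 CPM in E13 A, 157 CPM in E13 B and 163 CPM in E13 C. No marker of either list was at 0 counts over the libraries of an age. Vessel markers, 11 genes of endothelial and mural cells, summed to 303 to 364 CPM at E17 against 297 to 372 CPM at E13, but 4 of them rose and 5 fell (median -0.24). In the same step all 12 cell cycle genes fell (median -2.61), and 9 of 12 radial glia markers fell while 2 rose (-1.89). Falls were also seen in 6 of 7 intermediate progenitor markers (-2.25) and 6 of 9 erythroid genes (-1.98), with 0 rises in either. All 10 pan-neuronal markers rose (1.91). Among the E17 libraries, E17 B was highest in the choroid plexus and hem sum and in Bmp4 and Bmp7, but not in Bmp6, and was lowest in Bmp5. Among the P1 libraries, P1 A was highest in the meningeal sum without Pdgfra and in Bmp4, Bmp6 and Bmp7, but not in Bmp5. The part of any of these tissues or cell types in the falls of Bmp4, Bmp5, Bmp6 and Bmp7 was not tested.

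**Figure D3:**
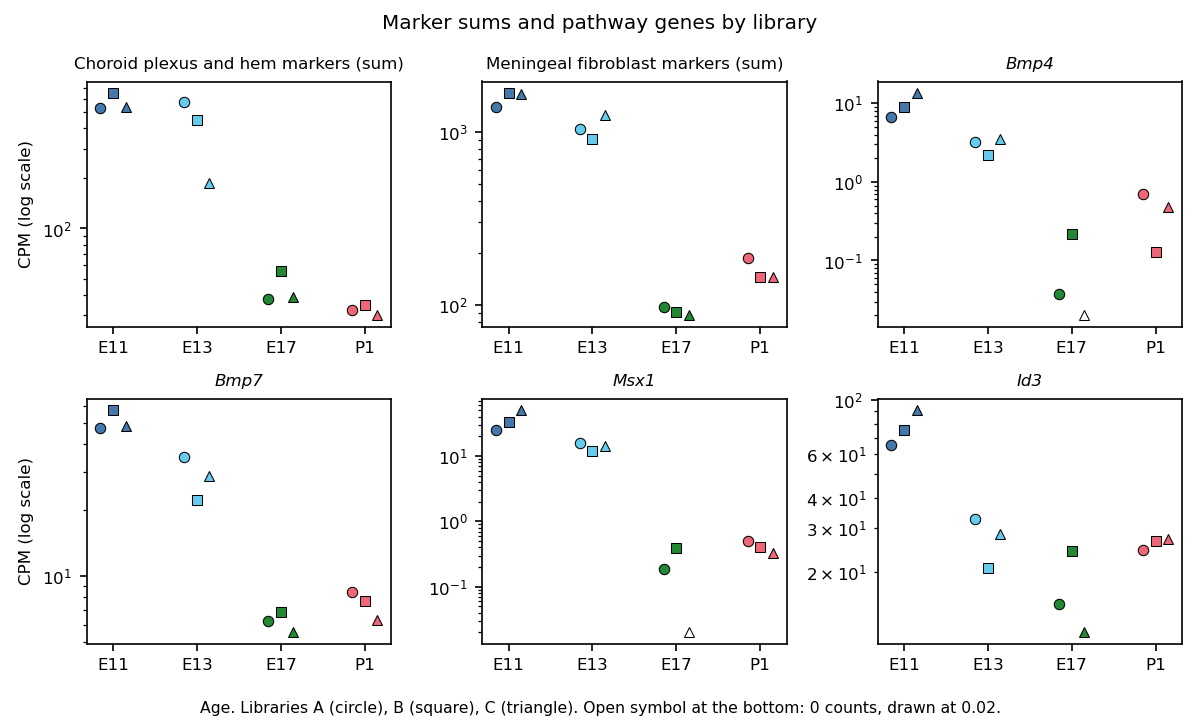
Summed markers of choroid plexus and hem and of meningeal fibroblasts beside Bmp4, Bmp7, Msx1 and Id3, in CPM on log axes, for libraries A (circle), B (square) and C (triangle) of each age. Open symbols at the bottom are libraries with 0 counts, drawn at 0.02. Both marker sums and Bmp4, Bmp7 and Msx1 are lower in every E17 library than in every E13 library, and Id3 overlaps between these ages.

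The TGF-beta ligands changed less than 2-fold in each step. Tgfb2 had the highest mean level per length at every age, 5.69, 4.21, 3.42 and 3.55 CPM per kb of exon at E11, E13, E17 and P1. At E17 the library ranges overlapped, with Tgfb2 at 43.8 to 52.7% and Tgfb3 at 40.0 to 47.8% of the summed TGF-beta ligands per kb. Its level fell from 32.9 to 24.4 CPM (means of 3) between E11 and E13, by 0.43 ± 0.13 on the log2 scale (adjusted p = 0.0198), a call lost without E11 A, E13 B or E13 C (adjusted p from 0.0557 to 0.0739). Tgfb1, a regulator of immune and vascular cells in many tissues, fell in both embryonic steps, by 0.64 ± 0.13 (adjusted p = 0.00207) and 0.56 ± 0.14 (adjusted p = 0.00281), from a mean of 6.63 to 4.25 and 2.89 CPM, with no overlap between the libraries of these ages. Tgfb3 rose in both, by 0.53 ± 0.15 (adjusted p = 0.0122) and 0.55 ± 0.14 (adjusted p = 0.00351), and fell by 0.62 ± 0.14 after E17 (adjusted p = 0.00289), with means of 4.71, 6.82, 9.98 and 6.51 CPM. With E17 A, E13 C and E11 C left out, the first rise of Tgfb3 had an adjusted p of 0.0733.

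Inhba, which encodes the beta A subunit of activins, had the largest rise of the 39 genes in any step. It was at 0.177, 0 and 0.191 CPM at E11, 0.132, 0.253 and 0.247 CPM at E13, 11.3, 8.55 and 8.93 CPM at E17, and 14.5, 13.3 and 14.8 CPM at P1. The E11 and E13 libraries held 12 and 22 counts in all, and those of E17 and P1 held 919 and 1683. Inhba rose by 5.5 ± 0.31 from E13 to E17 (adjusted p = 2.33e-09), 45.3-fold. The rise of 0.57 ± 0.2 from E17 to P1 (adjusted p = 0.0303) was lost without E17 B, E17 C, P1 A or P1 C (adjusted p from 0.0714 to 0.102). In the same step as the large rise, 10 of 10 pan-neuronal markers rose and their sum went from 2750 to 3370 CPM at E13 to 10600 to 10900 CPM at E17. Other lists rose in that step too: 10 of 11 markers of interneurons and ventral forebrain, 7 of 9 of astrocytes and 7 of 8 of the oligodendrocyte lineage. The part of any of these cell types in the rise of Inhba was not tested.

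Inhbb, which encodes the activin beta B subunit, was already present at E11. Its level was 21.9, 26.4 and 7.1 CPM at E11, 40.1, 52.1 and 39.8 CPM at E13, 37.7, 35.9 and 39.7 CPM at E17, and 25.2, 24.1 and 22.7 CPM at P1. The E11 libraries were all below those of E13, with E11 C, the library with more ventral markers, the lowest. Inhbb rose by 1.25 ± 0.35 from E11 to E13 (adjusted p = 0.0185), but the adjusted p was 0.0724 without E13 B, and the log2 fold change was 0.86 without E11 C. Every P1 library was below every E17 library, at a log2 fold change of -0.66 ± 0.35 (adjusted p = 0.144), and with E11 C left out the adjusted p was 0.000227. Gdf11, a ligand related to myostatin, fell by 0.77 ± 0.08 from E11 to E13 (adjusted p = 5.36e-06), from a mean of 45.5 to 26.7 CPM, and was at 24.0 CPM at E17 and 19.8 CPM at P1. Its fall of 0.27 after E17 (adjusted p = 0.00985) was lost without P1 C (adjusted p = 0.0738).

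Of the 5 type I receptors, 2 rose and 3 fell between E11 and P1, a comparison in which 82.3% of all tested genes changed. Bmpr1a, the broadly expressed BMP receptor, was at 206, 207 and 199 CPM at E11, 185, 162 and 175 CPM at E13, 88.2, 89.4 and 94.5 CPM at E17, and 82.8, 79.5 and 76 CPM at P1. No neighbouring ages overlapped, and the fall from E13 to E17 was 0.94 ± 0.06 on the log2 scale (adjusted p = 3.26e-09). Its smaller fall after E17 (log2 fold change -0.19, adjusted p = 0.0119) was lost without E17 C, P1 B or P1 C (adjusted p from 0.0547 to 0.0868). Bmpr1b, its relative, went from a mean of 24.0 CPM at E11 to 19.5, 15.5 and 13.4 CPM and fell by 0.84 ± 0.11 from E11 to P1 (adjusted p = 6.97e-06). Its calls in the first and second step (log2 fold changes -0.3 and -0.33) were each lost without single libraries, E11 A, E11 B, E11 C, E13 A or E13 B in the first (adjusted p up to 0.167) and E13 C or E17 B in the second (adjusted p up to 0.0851).

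Acvr1 and Acvr1b rose while Bmpr1a fell. Acvr1, a type I receptor for BMPs, was at 28.3, 27.2 and 26.7 CPM at E11, 35.1, 40.9 and 33.8 CPM at E13, 86.6, 79.7 and 80.5 CPM at E17, and 71.3, 63 and 70 CPM at P1. The 4 ages did not overlap, and E17 was the highest. Acvr1 rose by 0.42 ± 0.08 (adjusted p = 0.000741) and 1.17 ± 0.07 (adjusted p = 6.18e-09) in the embryonic steps. Its fall of 0.27 after E17 (adjusted p = 0.0069) was lost without E17 A (adjusted p = 0.0587) or P1 B (adjusted p = 0.0643). Acvr1b, the main type I receptor of activins, rose from a mean of 82.3 CPM at E11 to 100 CPM at E13 and 187 CPM at E17, by 0.28 ± 0.06 (adjusted p = 0.00158) and 0.91 ± 0.06 (adjusted p = 5.41e-09), and was at 189 CPM at P1. Tgfbr1, the type I receptor of TGF-betas, was at 211, 173, 172 and 150 CPM and fell by 0.5 ± 0.11 from E11 to P1 (adjusted p = 0.000759). Its call between E11 and E13 (log2 fold change -0.29, adjusted p = 0.0461) was lost when any library but E17 A or E17 B was left out (adjusted p up to 0.147).

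The type II receptors for activins exchanged places. Acvr2a was at 66.6, 63 and 66.8 CPM at E11, 69.8, 64.6 and 74.8 CPM at E13, 147, 189 and 183 CPM at E17, and 128, 142 and 112 CPM at P1. The libraries of E11 and E13 overlapped, and all of E17 lay above them and above P1. Acvr2a rose by 1.31 ± 0.1 from E13 to E17 (adjusted p = 8.31e-08) and fell by 0.44 ± 0.1 after it (adjusted p = 0.00261), and 7.84% of its exon bases are shared with Orc4, a gene with reads on the opposite strand. Acvr2b was at 79.3, 71.3 and 87.6 CPM at E11, 58.4, 58.4 and 63.8 CPM at E13, 27.3, 20.8 and 29.7 CPM at E17, and 14.3, 13.1 and 10.3 CPM at P1. It was lower at each age than at the one before, with no overlap. Acvr2b fell by 1.21 ± 0.14 from E13 to E17 (adjusted p = 4.02e-06) and by 1.05 ± 0.14 from E17 to P1 (adjusted p = 7.97e-05). Its first fall of 0.4 (adjusted p = 0.0283) was lost without E11 A, E11 C, E13 A or E13 B (adjusted p from 0.0622 to 0.0971).

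Bmpr2, the type II receptor that is specific to BMPs, rose by 0.41 ± 0.07 (adjusted p = 0.000787) and 0.42 ± 0.07 (adjusted p = 0.000177) in the embryonic steps, from a mean of 130 to 173 and 232 CPM, and was at 212 CPM at P1. Tgfbr2, the TGF-beta type II receptor, fell by 0.83 ± 0.1 from E13 to E17 (adjusted p = 4.76e-06), with 17.9 to 22.2 CPM at E13 and 10.2 to 12 CPM at E17. Tgfbr3, betaglycan, is a co-receptor that presents TGF-beta2 and inhibins. It was at 11.1, 10.8 and 10.9 CPM at E11, 9.18, 6.62 and 8.51 CPM at E13, 1.82, 2.22 and 1.45 CPM at E17, and 2.9, 2.96 and 1.96 CPM at P1. All E13 libraries were above 6 CPM and all later ones below 3 CPM. Tgfbr3 fell by 2.16 ± 0.19 from E13 to E17 (adjusted p = 2.01e-07). Its rise after E17 (log2 fold change 0.53, adjusted p = 0.0439) was lost when any library but E13 A, E13 B, E17 B or P1 C was left out (adjusted p up to 0.201).

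Among the receptor-regulated Smads, Smad3 and Smad5 fell and Smad1 rose over the embryonic ages. Smad3, which carries TGF-beta and activin signals, was at 135, 138 and 139 CPM at E11, 90.5, 74.5 and 93.2 CPM at E13, 36.9, 29.7 and 32.3 CPM at E17, and 43.8, 35.2 and 45.2 CPM at P1. The embryonic ages did not overlap, and P1 B lay within the E17 range. Smad3 fell by 0.67 ± 0.1 (adjusted p = 0.00029) and 1.38 ± 0.11 (adjusted p = 1.04e-07). Its rise of 0.33 after E17 (adjusted p = 0.0235) was lost without E17 B, E17 C, P1 A or P1 C (adjusted p from 0.0587 to 0.0927). Smad2, the other transducer of those signals, was within 53.2 and 72.9 CPM in all 12 libraries. It rose by 0.19 ± 0.04 from E13 to E17 (adjusted p = 0.00146), a change of 0.01 with scaling by library size alone, and fell by 0.4 ± 0.04 after E17 (adjusted p = 1.24e-05).

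Of the Smads of the BMP branch, Smad5 had the highest level per length at every age, 35.0 CPM per kb at E11 and 15.8 CPM per kb at P1. It fell by 0.66 ± 0.07 (adjusted p = 1.36e-06) and 0.65 ± 0.07 (adjusted p = 1.2e-05) from E13 to E17 and from E17 to P1, from a mean of 291 to 184 and 117 CPM. Smad1 rose by 0.36 ± 0.06 from E13 to E17 (adjusted p = 0.00011), from 54.2 to 69.6 CPM, and was at 69.8 CPM at P1. An earlier rise of 0.18 (adjusted p = 0.0356) held only in the runs without E11 B, E17 B or E17 C and was lost in the 9 other runs that each left out 1 library (adjusted p up to 0.149). Smad9 had the lowest level per length of the receptor-regulated Smads at every age. It was at 1.86, 2.06 and 1.81 CPM at E11, 1, 1.21 and 1.39 CPM at E13, 0.757, 1.5 and 0.586 CPM at E17, and 2.21, 1.88 and 2.29 CPM at P1. Its P1 libraries were all above those of E17. Smad9 rose by 1.2 ± 0.28 from E17 to P1 (adjusted p = 0.00284).

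Smad4, the partner of all receptor-regulated Smads, was at means of 151, 160, 129 and 98.8 CPM and fell by 0.31 ± 0.07 (adjusted p = 0.00136) and 0.39 ± 0.07 (adjusted p = 0.000571) from E13 to E17 and from E17 to P1. The inhibitory Smads parted. Smad6, which blocks the BMP branch and is itself a BMP target, was at 8.59, 9.66 and 9.07 CPM at E11, 7.91, 6.31 and 6.97 CPM at E13, 2.04, 2.15 and 2.27 CPM at E17, and 1.38, 1.26 and 1.36 CPM at P1. Its ages did not overlap. Smad6 fell by 1.71 ± 0.12 from E13 to E17 (adjusted p = 2.68e-08) and by 0.69 ± 0.14 after it (adjusted p = 0.00102), and its first fall of 0.37 (adjusted p = 0.0202) was lost without E11 B, E13 B or E13 C (adjusted p from 0.0605 to 0.088). Smad7, which blocks both branches, rose by 0.48 ± 0.1 from E13 to E17 (adjusted p = 0.000678), from a mean of 9.2 to 12.8 CPM, and was at 11.4 CPM at P1.

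The Id genes encode proteins that bind basic helix-loop-helix factors and keep them from DNA, and all are known to respond to BMPs in some cells. They went in different directions. Id4 was at 318, 306 and 286 CPM at E11, 376, 311 and 369 CPM at E13, 36.1, 23.8 and 34.6 CPM at E17, and 18.4, 18.1 and 17.8 CPM at P1. The E11 and E13 libraries overlapped, and both lay far above all later ones. Id4 fell by 3.48 ± 0.13 from E13 to E17 (adjusted p = 3.02e-10), 11.2-fold, and by 0.8 ± 0.13 after it (adjusted p = 0.000365).

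Id2 moved opposite to Id4 in the same step. It was at 30.6, 34.4 and 36.7 CPM at E11, 56, 61.3 and 53.5 CPM at E13, 309, 332 and 359 CPM at E17, and 255, 294 and 218 CPM at P1. No neighbouring ages overlapped. Id2 rose by 0.75 ± 0.11 (adjusted p = 0.000146) and 2.55 ± 0.11 (adjusted p = 3.13e-10), 5.85-fold in the second step, and fell by 0.38 ± 0.1 after it (adjusted p = 0.00733). The sum of 12 radial glia markers went from 3270 to 3340 CPM at E13 to 1380 to 1580 CPM at E17, where 9 of the 12 fell and 2 rose, and that of 12 cell cycle genes from 3230 to 3750 CPM to 495 to 680 CPM, where all 12 fell. The part of the loss of progenitor RNA and of the rise of neuronal and glial RNA in the change of Id4 and Id2 was not tested.

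Id3 and Id1 fell in the first step. Id3 was at 65.4, 75.7 and 91.2 CPM at E11, 32.8, 20.6 and 28.5 CPM at E13, 14.7, 24.3 and 11.3 CPM at E17, and 24.4, 26.7 and 27.1 CPM at P1. The E11 libraries were all above 65 CPM and no later one reached 33 CPM. Id3 fell by 1.5 ± 0.25 from E11 to E13 (adjusted p = 0.000988). A further fall of 0.72 ± 0.26 (adjusted p = 0.0294) was lost without E13 A, E13 C, E17 A or E17 C (adjusted p from 0.0719 to 0.112), and E17 B overlapped with the E13 range. Id1 was at 11.6, 15.6 and 17.8 CPM at E11, between 6.37 and 9.78 CPM at E13, between 7.59 and 9.5 CPM at E17, and between 8.76 and 10.2 CPM at P1. It fell by 0.87 ± 0.17 from E11 to E13 (adjusted p = 0.00131), and its log2 fold changes in the later steps were 0.09 (adjusted p = 0.669) and 0.11 (adjusted p = 0.609).

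**Figure D4:**
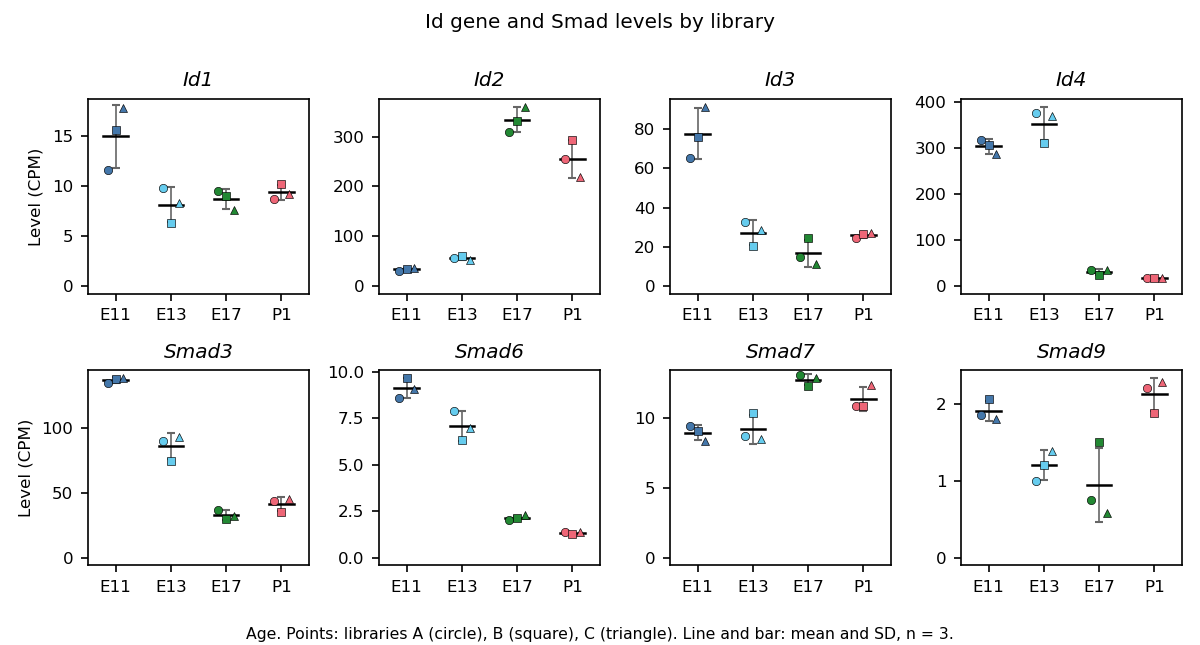
Levels of 4 Id genes and 4 Smad genes by age, in CPM on a linear axis, with points for libraries A, B and C and the mean and SD of the 3 libraries of an age. Id2 and Id4 exchange places between E13 and E17, Id3 and Id1 drop between E11 and E13, and Smad6 falls while Smad7 rises.

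The antagonists bind ligands outside the cell, and 3 of the 4 listed here rose from E13 to E17. In that step 36.8% of all tested genes rose. Of 18 other antagonists from the wider list described below, 8 rose and 7 fell (median log2 fold change -0.21). Fst, follistatin, the activin-binding antagonist, was at 2.13, 3.18 and 3.25 CPM at E11, 2.96, 3.37 and 3.76 CPM at E13, 9.77, 11.3 and 8.77 CPM at E17, and 11.8, 14.1 and 9.69 CPM at P1. All libraries from E17 on were above 8 CPM and all earlier ones below 4 CPM. Fst rose by 1.56 ± 0.18 from E13 to E17 (adjusted p = 3.06e-06). Chrd, the BMP antagonist chordin, rose in every step, by 0.71 ± 0.15 (adjusted p = 0.00229), 0.77 ± 0.14 (adjusted p = 0.000277) and 0.88 ± 0.14 (adjusted p = 0.000173). Its levels were 4.27 to 4.83 CPM at E11, 5.77 to 9.43 CPM at E13, 12.0 to 14.2 CPM at E17 and 22 to 24.7 CPM at P1, with no overlap.

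Grem1, the BMP antagonist gremlin, was at 3.1, 5.1 and 2.36 CPM at E11, 1, 2.08 and 0.987 CPM at E13, 8.75, 11 and 7.57 CPM at E17, and 5.3, 5.67 and 3.96 CPM at P1. Its 3 E13 libraries were the lowest of the 12, and its E17 libraries the highest. Grem1 fell by 1.37 ± 0.34 (adjusted p = 0.0067) and then rose by 2.74 ± 0.33 (adjusted p = 8.2e-06), and its fall of 0.87 after E17 (adjusted p = 0.0261) was lost without E17 A, E17 B, P1 A or P1 C (adjusted p from 0.0566 to 0.111). Nog, the BMP antagonist noggin, was the one of the 4 that fell from E13 to E17. It was at 7.17, 7.66 and 6.81 CPM at E11, 7.8, 8.67 and 6.26 CPM at E13, 3.22, 4.44 and 3.19 CPM at E17, and 5.27, 5.92 and 5.46 CPM at P1. The E17 libraries were below all others. Nog fell by 1.07 ± 0.15 from E13 to E17 (adjusted p = 2.31e-05) and rose by 0.63 ± 0.15 after it (adjusted p = 0.00431).

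Levels per kb of exon show how the make-up of each family shifted, as means of the libraries of an age. The 6 BMP ligands summed to 22.5, 12.7, 4.16 and 5.02 CPM per kb at E11, E13, E17 and P1. Bmp7 made up 57.2% of that sum at E11 and 37.1% at E17, Bmp4 19.1% and 0.88%, and Bmp3 0.545% and 44.2%. The library ranges of these shares at the 2 ages did not overlap for any of the 3. The activin beta subunits summed to 4.36, 10.4, 10.4 and 7.86 CPM per kb, and the share of Inhba in them was 0.765%, 0.317%, 14.5% and 28.3%.

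The summed level of the Id genes stayed within 117 and 169 CPM per kb in all 12 libraries while its main part changed. Id4 made up 53.1% at E11, 66.7% at E13, 5.08% at E17 and 3.58% at P1, and Id2 made up 9.32%, 17.2%, 84.5% and 79.1%. The 4 type II receptors summed to 41.5, 39.7, 51.3 and 38.9 CPM per kb, with Acvr2b at 48.6% and Acvr2a at 27.7% at E11 and 8.2% and 57.4% at P1. Among the type I receptors, with sums of 92.8, 87.4, 103 and 94.5 CPM per kb, Bmpr1a made up 34.6% at E11 and 13.2% at P1, and Acvr1b 20.1% and 45.2%. The antagonists summed to 6.46, 6.72, 8.53 and 10.8 CPM per kb, and Nog made up 66.1% of that at E11 and 30.4% at P1. Smad6 made up 58.9% of the inhibitory Smads at E11 and 14.2% at P1. The shares assume that reads come from all annotated exon bases, which these data do not show.

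**Figure D5:**
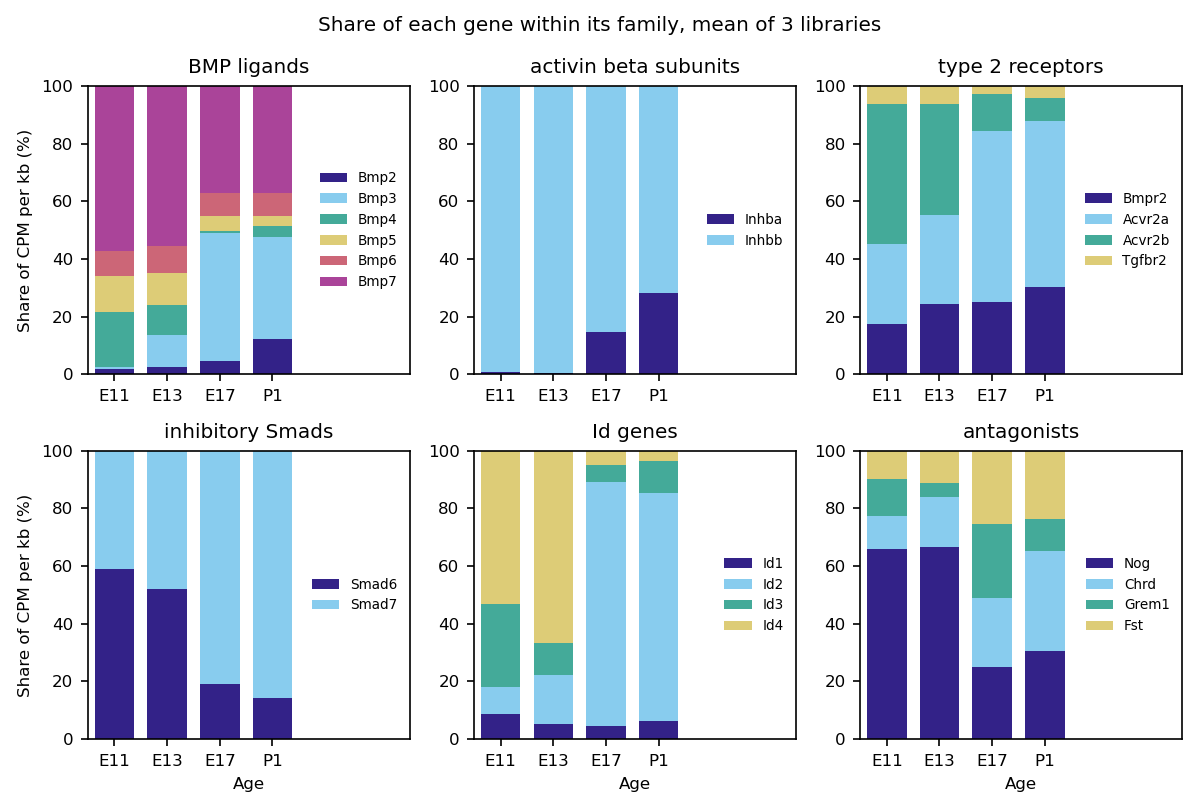
Share of each gene in the summed level of its family at each age, in percent of CPM per kb of exon, as the mean of 3 libraries. Stacked bars from 0 to 100% show 6 families. The Id bars change from mostly Id4 to mostly Id2 between E13 and E17, and in the same step Acvr2a replaces Acvr2b as the main type II receptor and Bmp3 has the largest share of the BMP ligands at E17.

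A wider list of 92 other genes of these pathways was described in the same fit, of which 76 had enough counts to be tested. Of these, 22 rose and 16 fell from E11 to E13, 34 rose and 29 fell from E13 to E17, and 22 rose and 15 fell from E17 to P1. The shares that changed were 50%, 82.9% and 48.7%, against 40.1%, 73.8% and 49.9% of all tested genes, and the median log2 fold changes were 0.05, 0.07 and 0.15. Of 13 targets other than the Id genes, 4 rose and 8 fell from E13 to E17 (median -0.97). Of 9 other genes of the ligand families, 7 rose and 1 fell in that step (median 1.48). The 7 include Lefty2, an inhibitor of Nodal signals, and Inha, which encodes the inhibin alpha subunit (log2 fold change 1.46). They also include Mstn, which was under 1 CPM in all 12 libraries. Of 7 other receptors and co-receptors, 4 rose and 1 fell (0.53). Of 14 genes of ligand activation, 4 rose and 9 fell (-0.74), and of 15 intracellular regulators 7 rose and 3 fell (0.15). Of 18 other antagonists, 8 rose and 7 fell (-0.21). Msx1 and Msx2, homeobox targets of BMPs, fell the most in that step. Msx1 was at 24.7, 33.4 and 51.2 CPM at E11, 16, 12 and 14.2 CPM at E13, 0.189, 0.394 and 0 CPM at E17, and 0.506, 0.412 and 0.334 CPM at P1. It fell by 6.36 ± 0.52 from E13 to E17 (adjusted p = 5.13e-07), with a log2 fold change of -7.52 without E17 B and -5.56 without E17 C, in the step in which Bmp4 and the marker sums above fell. Msx2 went from a mean of 9.66 to 1.59 and 0.0498 CPM, the last from 4 counts in all. Its log2 fold change was -2.59 ± 0.46 in the first step (adjusted p = 0.00107; -1.86 without E11 C) and -5.15 ± 0.92 in the second (adjusted p = 0.000309; -6.48 without E17 A and -4.37 without E17 C).

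Among the other ligands and their regulators, Lefty2, an inhibitor of Nodal signals, had 4 counts at E13 and a mean of 2.43 CPM at E17. It rose by 5.87 ± 0.41 from E13 to E17 (adjusted p = 1.63e-08; 5.28 without E13 A) and by 1.5 ± 0.22 to 6.86 CPM at P1 (adjusted p = 8.61e-05). Vwc2l, which encodes a secreted protein with von Willebrand factor C domains, rose by 5.61 ± 0.27 from E13 to E17 (adjusted p = 4.27e-10), from 0.135 to 6.6 CPM. Ltbp1, which holds latent TGF-beta in the matrix, peaked at E13: it rose by 1.94 ± 0.14 (adjusted p = 6.53e-07), from 16.5 to 63.3 CPM, and fell by 2.13 ± 0.14 (adjusted p = 1.64e-08) and 1.68 ± 0.15 (adjusted p = 4.73e-06) to 14.4 and 4.51 CPM.

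Gdf5, a ligand known from joints, fell by 1.48 ± 0.31 from E11 to E13 (adjusted p = 0.00214), from 4.27 to 1.51 CPM, and rose back to 4.27 CPM at E17 (log2 fold change 1.48 ± 0.31, adjusted p = 0.000776). Acvr1c, a type I receptor of Nodal and activins, rose by 2.11 ± 0.23 from E11 to E13 (adjusted p = 1.41e-05), from 0.969 to 4.2 CPM. Chrdl1, a chordin-like antagonist, rose by 1.28 ± 0.2 from E17 to P1 (adjusted p = 0.000153), from 3.47 to 8.33 CPM. Tgif2, a repressor of TGF-beta responses, fell by 1.36 ± 0.13 in that step (adjusted p = 8.46e-06), from 21.5 to 8.45 CPM, after a fall of 2.12 ± 0.12 from E13 to E17 (adjusted p = 7.3e-09).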

How the data were processed

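Deposited files held raw read counts per Ensembl gene, 1 file per library, with no normalization by the authors. Per the submitters' processing notes, tools were DESeq2 1.8.1, HTSeq 0.5.3, STAR 2.5.2b, bcl2fastq 2.18 and SAMtools. Their roles, the genome build, the annotation and how strand was treated were not given in the sources used here. In R 4.3.3, edgeR 4.0.16 kept 17847 genes (filterByExpr by age, minimum count 10) and removed 32753. It scaled libraries by TMM (factors 0.92 to 1.09) and fitted a robust quasi-likelihood model of age to all 12 libraries, with two-sided Benjamini-Hochberg adjusted p-values over all genes. The fit was tested on simulated counts. The p-values rest on the spread between animals of the same age, 3 per age, pooled for each gene over the 4 ages and moderated across genes. A variable age can thus weaken a call between other ages. Exon lengths and overlaps came from GENCODE M21 by identifier. No library was a copy of another (chi-squared per degree of freedom 10.23 to 29.81 in 12 pairs of the same age).

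The genes and lists were chosen with earlier results of these data known. Members changed at least 2-fold in a step are described in full, and of the other pathway genes the 2 largest rises and falls of each step, in both cases only where the mean level reached 1 CPM at either age. Marker sums without Pdgfra or Ttr were added after their values were seen. Alternatives were other scaling, other filters, erythroid genes removed, only the ages compared, the replicate letter as a block, DESeq2 1.42.0 and each library left out. One marker of the cortex is not reported here.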

Additional observations from a re-analysis of the deposited data

How the results depend on the processing

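The counts of changed genes among the 39 stayed within 1.5 times under every alternative run. Leaving out each library in turn gave 17 to 27 (E11 to E13), 28 to 32 (E13 to E17), 16 to 22 (E17 to P1), 34 to 36 (E11 to P1) and 38 to 39 (across the 4 ages). With no low-count filter they were 20, 31, 19, 34 and 38. With E17 A, E13 C and E11 C left out together, an alternative chosen with earlier results of these data known, they were 18, 28, 20, 36 and 39.

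Deviations from the age means correlated at -0.343 to 0.33 between libraries of the same letter at different ages. Between libraries of different letters they correlated at -0.342 to 0.315. With 3 libraries per age the deviations depend on one another, so this check cannot show whether the letters A, B and C are paired. With the letter as a replicate block the counts were 23, 34, 21, 36 and 39, and 5 of 156 single results changed their side of the threshold.

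Scaling by library size alone moved the median of all tested genes to -0.22 from E13 to E17 and to -0.26 from E11 to P1, and the share of rises among all called genes from 49.8% to 39.8% and from 49.2% to 41.5%. Among the 39 genes, 12 then rose and 20 fell from E13 to E17, and Bmp1 reversed to -0.02 (adjusted p = 0.72). No other called result of the 39 genes changed direction in these runs. Of 156 single results (39 genes in 4 comparisons), the call was lost in 13 and gained in 2 with the 3 libraries left out, lost in 10 and gained in 1 with no low-count filter, and lost in 6 and gained in 5 with library size alone. With only the ages compared, 3 of 154 were lost and 5 gained. None was lost and 2 were gained with DESeq2, 1 with RLE factors, 3 with a filter at 1 CPM in 3 libraries and 0 with erythroid genes removed. Genes under 1 CPM at an age, such as Bmp4 at E17, are limited by their few counts. Reads from the shared bases of 12 genes that overlap another gene cannot be assigned. For overlaps on opposite strands this is because the strand setting is not given. For Smad5 and Tgfbr3 the other gene lies on the same strand, where strand could not part the reads.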
